A study of Mus musculus with 30 samples.

Results

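Receptor loss was examined across both oncogene states of the mouse mammary gland: glands whose mice lack IFNAR1, a chain of the type I interferon receptor, were compared with glands that keep it, with the states with and without the Her2/Neu oncogene weighted equally. All 30 arrays of the series entered the comparison. The 17 arrays with receptor loss were 8 of IFNAR1-/- glands and 9 of Her2/Neu+/IFNAR1-/- glands, and the 13 arrays with the receptor intact were 7 of WT glands and 6 of Her2/Neu+ glands. All 4 groups were inguinal mammary glands of 129sv mice aged 19 weeks, so no other allele or agent separates them in the labels. The labels do not name the promoter that drives the oncogene or the part of Ifnar1 that was deleted. Nor do they say whether samples of a group came from separate animals, so a p-value covers no more than the scatter among the samples at hand, part of which may be technical. Gland RNA labelled with Cy5 was hybridised beside Cy3-labelled Universal mouse reference RNA (Stratagene), and a level below is the log2 ratio of gland over reference. A change is the mean of 2 differences on that scale, IFNAR1-/- minus WT and Her2/Neu+/IFNAR1-/- minus Her2/Neu+, given with its standard error. In all, 11463 of the 12147 genes with a probe had values on 50% or more of the arrays of every group and were tested. A gene passed when its p-value from limma, adjusted over all of these genes by the Benjamini-Hochberg method, was below 0.05.

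IFNAR1 pairs with IFNAR2 to form the receptor that all type I interferons share. Binding activates the kinases JAK1 and TYK2, and the signal ends at interferon-stimulated response elements in the promoters of antiviral genes. A low tonic interferon signal is known to hold many of these genes at a basal level in uninfected tissue. Her2/Neu is a receptor tyrosine kinase whose overexpression in mouse mammary epithelium gives tumours.

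The arrays held 17485 to 20801 values each out of 20896 probes, and array medians lay between -0.12 and -0.00. On each array 2639 to 10385 of the values occurred more than once digit for digit, which are called repeated values here. The scale ends at 6, so a gene at 6 has only a lower bound. Adipoq, an adipocyte hormone, stood at this limit on all 30 arrays. The luminal keratin Krt8 ranged from -4.04 to 1.28 over all arrays, and the epithelial adhesion molecule Epcam from -0.33 to 5.81. Ifnar1 itself differed by 0.02 ± 0.40 (adjusted p = 0.995), with group medians of 0.06 in WT, -0.06 in IFNAR1-/-, 0.14 in Her2/Neu+ and 0.65 in Her2/Neu+/IFNAR1-/-. Whether its probes lie in the deleted part is not given in the sources used here, so this level checks no label. Ifnar2, the partner chain, differed by 0.14 ± 0.23 (adjusted p = 0.892).

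Receptor loss over both states was followed by a change in 8 genes, 6 higher and 2 lower, which is 0.0698% of the genes tested. The genes that fell were Glo1, the glyoxalase that starts the removal of methylglyoxal, and Tbc1d2, a regulator of Rab GTPases. Those that rose were Rnase4, a secreted ribonuclease, and 5 predicted zinc finger genes of a single stretch of chromosome 2, Gm14288, Gm14411, Gm14326, Gm14393 and Gm14391. Gm14393 and Tbc1d2 fell outside the naming rule, which asks for repeated values on under 50% of each group's arrays, and were named with their values known (3 of 6 Her2/Neu+ arrays repeated for Gm14393, 6 of 9 Her2/Neu+/IFNAR1-/- arrays for Tbc1d2). At an unadjusted p under 0.05, 459 genes (4.00%) were lower and 529 (4.61%) were higher. None of the 8 passed the interaction test of the same fit, which compares the change between the states (lowest adjusted p 0.425). This does not show that the changes are equal. The unadjusted p of this limma test was 0.00049 for Gm14411, 0.00075 for Gm14288, 0.00081 for Gm14393 and 0.0023 for Gm14326. In each of these the change was larger with the oncogene. Each of the 8 passed in all 30 fits that left out a single array.

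**Figure D1:**
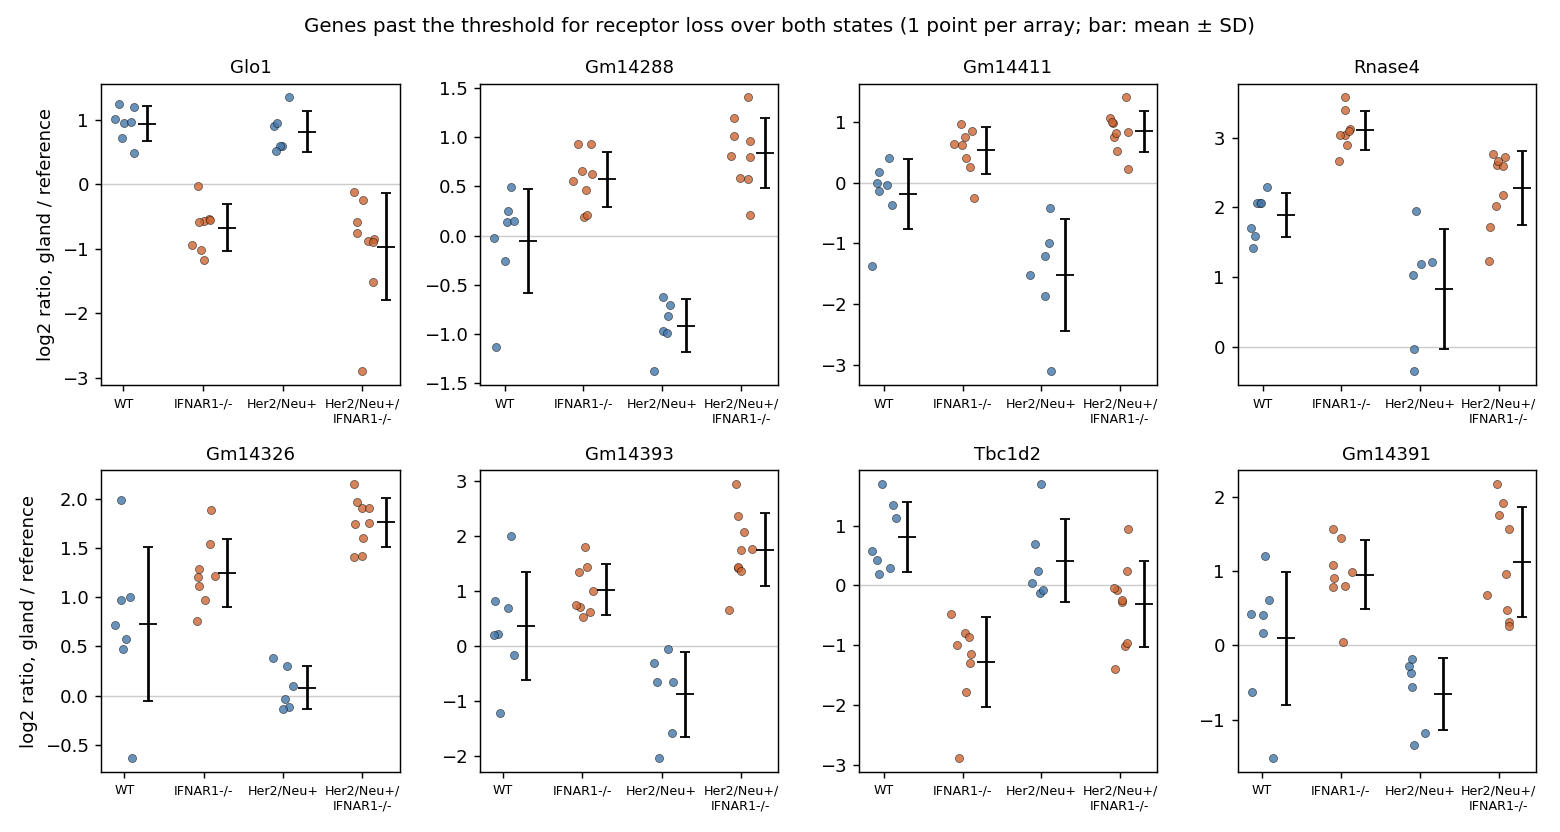
Log2 ratio of gland over reference for the 8 genes past the threshold, with 1 point per array in each of the 4 groups and the mean ± SD beside it. Blue groups keep the receptor and orange groups lack it; in Glo1 the 17 orange points lie below all 13 blue points.

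Glo1 lay between 0.48 and 1.25 in WT glands (median 0.96) and between -1.17 and -0.02 in IFNAR1-/- glands (median -0.58). With the oncogene it lay between 0.52 and 1.35 in Her2/Neu+ glands (median 0.75) and between -2.90 and -0.12 in Her2/Neu+/IFNAR1-/- glands (median -0.85). Every gland without the receptor was thus below every gland with it, in both states, and the groups did not overlap. The change was -1.70 ± 0.20, or 3.25-fold lower (adjusted p = 2.43e-05), made up of -1.61 ± 0.28 without and -1.78 ± 0.29 with the oncogene. Groups failed to overlap in 27 genes without the oncogene (0.236%) and in 15 genes with it (0.131%), and Glo1 was the 1 gene (0.00872%) in which this held in both states in the same direction. In the first 15 arrays alone no gene passed (807 had an unadjusted p under 0.05), and Glo1 had a change of -2.05 there (limma adjusted p = 0.0594); in the last 15 alone it was -1.56 (limma adjusted p = 0.000866).

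Among the measured genes on either side of Glo1 on chromosome 17, in the gene order of the RefSeq annotation of GRCm38.p6, none passed. Btbd9, the nearest measured neighbour on one side, had a change of -0.49 ± 0.24 (adjusted p = 0.576). On the other side 1700097N02Rik had a change of -0.25 ± 0.28 (adjusted p = 0.819) and Dnah8, a dynein heavy chain, one of -1.19 ± 0.41 (adjusted p = 0.418). The Dnah8 difference was -2.30 without the oncogene and -0.08 with it, and 19 of its 30 values were repeated values. Without the oncogene other near neighbours were lower too, Btbd9 at -0.74, 1700097N02Rik at -1.05 and Abcg1 at -1.09, where with it they stood at -0.25, 0.55 and 0.66. In a list of Glo1 and its neighbours, which holds Glo1 itself, 3 of 4 measured genes were lower at an unadjusted p under 0.05, beside 4.00% of all genes, with a median of -0.84 (-1.17 without and -0.17 with the oncogene). Zfand3, Ccdc167, Cmtr1 and Rnf8 had changes of 0.08, 0.30, 0.02 and 0.04. Of the 15 measured genes of the glyoxalase and glutathione list, Glo1 was the 1 that passed, and the list median was -0.02.

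The 5 predicted zinc finger genes on chromosome 2 rose together with receptor loss. In the limma contrast for each state, taken from the same fit over all 30 arrays, all 5 passed with the oncogene (adjusted p = 5.45e-05 to 0.0337). Without the oncogene none passed (adjusted p = 0.657 to 0.770). They lie in a stretch from Gm14393 to Zfp931 that holds 70 annotated genes, of which 14 were measured. Zinc finger genes of such clusters encode proteins with a KRAB domain and arrays of C2H2 fingers in many cases, and they are known for near-identical copies. Probes could therefore bind RNA of more than 1 copy, and the copies cannot be told apart from these values. Over the stretch 5 of 14 genes passed, 8 of 14 were higher at an unadjusted p under 0.05, against 4.61% of all genes, and 0 were lower. The median change was 1.10, beside 0.02 over all genes tested. The stretch is described because genes in it rose, so its counts and median are not independent evidence.

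Gm14288 lay between -1.13 and 0.49 in WT (median 0.14) and between 0.19 and 0.93 in IFNAR1-/- glands (median 0.59), and it lay between -1.38 and -0.63 in Her2/Neu+ (median -0.89) and between 0.21 and 1.40 in Her2/Neu+/IFNAR1-/- glands (median 0.81). The groups overlapped without the oncogene and did not overlap with it, where the Her2/Neu+ glands were the low ones. Its change was 1.19 ± 0.15, or 2.28-fold (adjusted p = 5.47e-05), with 0.62 ± 0.21 without and 1.75 ± 0.21 with the oncogene.

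Gm14411 ranged from -1.37 to 0.40 in WT (median -0.04) and from -0.25 to 0.97 in IFNAR1-/- glands (median 0.63), against -3.10 to -0.41 in Her2/Neu+ (median -1.37) and 0.22 to 1.40 in Her2/Neu+/IFNAR1-/- glands (median 0.84). The same arrangement held, with overlap in the state without the oncogene and none in the other. The change was 1.54 ± 0.21, or 2.91-fold (adjusted p = 0.000148), with 0.72 ± 0.29 without and 2.36 ± 0.30 with the oncogene.

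Gm14326 had medians of 0.72 in WT, 1.22 in IFNAR1-/-, 0.03 in Her2/Neu+ and 1.76 in Her2/Neu+/IFNAR1-/- glands. Its WT values spread from -0.64 to 1.99 and enclosed the IFNAR1-/- values of 0.76 to 1.89, while the Her2/Neu+ values of -0.14 to 0.39 lay below the Her2/Neu+/IFNAR1-/- values of 1.42 to 2.15. The change was 1.10 ± 0.17, or 2.15-fold (adjusted p = 0.00141), with 0.52 ± 0.24 without and 1.69 ± 0.25 with the oncogene.

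Gm14393 lay between -1.23 and 1.99 in WT (median 0.21) and between 0.52 and 1.80 in IFNAR1-/- glands (median 0.87), and it lay between -2.04 and -0.06 in Her2/Neu+ (median -0.66) and between 0.64 and 2.94 in Her2/Neu+/IFNAR1-/- glands (median 1.74). For Gm14391 the WT range was -1.51 to 1.20 (median 0.41), the IFNAR1-/- range 0.05 to 1.57 (median 0.94), the Her2/Neu+ range -1.33 to -0.18 (median -0.47) and the Her2/Neu+/IFNAR1-/- range 0.26 to 2.17 (median 0.96). In both genes the groups overlapped without the oncogene and were apart with it. Gm14393 changed by 1.65 ± 0.26, or 3.13-fold (adjusted p = 0.00154), with 0.66 ± 0.37 without and 2.63 ± 0.38 with the oncogene. Gm14391 changed by 1.32 ± 0.25, or 2.49-fold (adjusted p = 0.0147), with 0.86 ± 0.35 without and 1.77 ± 0.35 with the oncogene. With slide as a random block Gm14391 no longer passed, at 1.29 ± 0.27 (adjusted p = 0.0794). It was also lost when only the probe with the largest spread stood for the gene (1.18, adjusted p = 0.253), as was Gm14288 (1.26, adjusted p = 0.0965).

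In the state with the oncogene, all 9 arrays without the receptor were above all Her2/Neu+ arrays for each of the 5 genes. Counting each array without the receptor against the intact arrays of its own state, 14 of 17 were above for Gm14288 and Gm14411, 11 of 17 for Gm14391 and 9 of 17 for Gm14326 and Gm14393. Over the 30 arrays the 10 pairs among the 5 genes correlated at Pearson r of 0.71 to 0.88, and at 0.29 to 0.65 after each group was centred on its mean. These pairs share arrays and may share target RNA, so the values are a description.

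**Figure D2:**
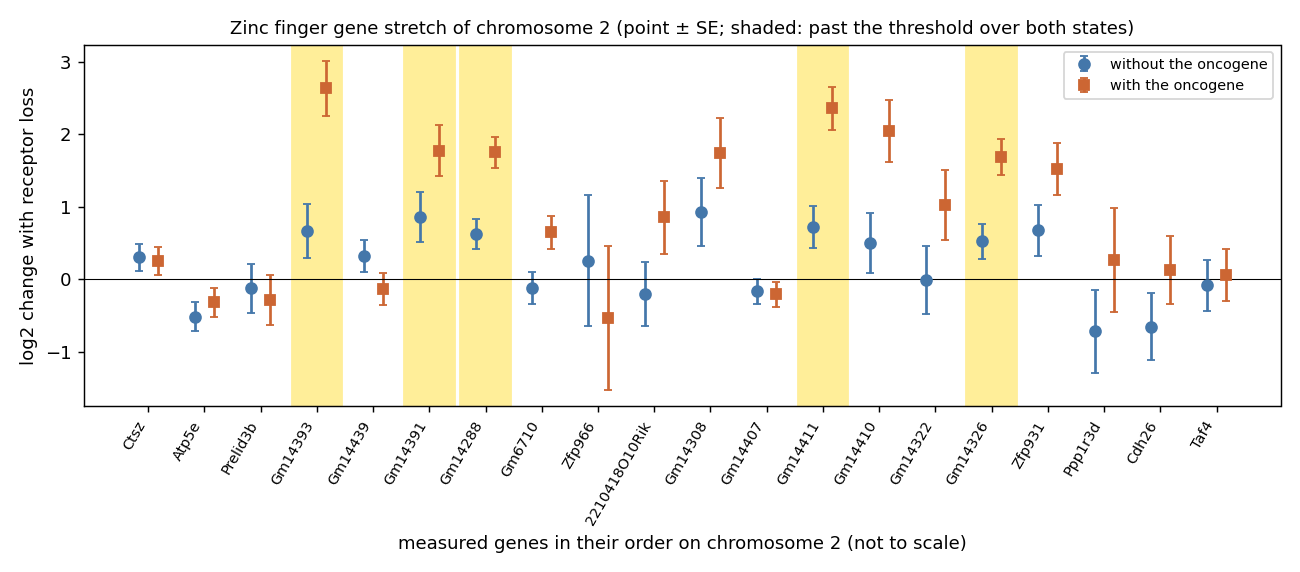
Log2 change with receptor loss (point ± standard error) for the 14 measured genes of the chromosome 2 stretch and 3 measured neighbours on each side, in gene order and not to scale, without (blue) and with (orange) the oncogene. Shaded genes passed over both states; Gm14439, Gm6710, Zfp966 and Gm14407 lie among them with changes between -0.19 and 0.26 over both states.

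The other genes of the stretch did not pass. Gm14308, Gm14410 and Zfp931, named after their values were seen, had changes of 1.33 ± 0.34 (adjusted p = 0.178), 1.27 ± 0.30 (adjusted p = 0.138) and 1.10 ± 0.25 (adjusted p = 0.113). Gm14439 had a change of 0.09 ± 0.15, Gm6710 of 0.26 ± 0.16, Zfp966 of -0.14 ± 0.67 and Gm14407 of -0.19 ± 0.12. Gm14322 and 2210418O10Rik stood at 0.50 ± 0.34 and 0.32 ± 0.33. Outside the stretch Prelid3b, the next measured gene before it, had a change of -0.21 ± 0.24, and Ppp1r3d, the next after it, of -0.23 ± 0.46.

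The promoters of the higher genes in the stretch are shown because most of those with an entry share a stretch of sequence. RefSeq promoter entries of GRCm38.p6 were matched by symbol for 7 of the 8 higher genes. The longest identical run held by at least 6 of these 7 was sought, so its share among them was set by the search. It was 40 bases long and held by 6 genes (Gm14391, Gm14288, Gm14308, Gm14410, Gm14326 and Zfp931). The longest run held by all 7 was 17 bases. The run of 40 bases was present in 30 of 32851 promoter entries (0.0913%). Genes of the stretch that were not higher were not counted apart, so this share measures no enrichment. Over windows that include the run by choice, the 15 pairs of these 6 genes were 92.74% to 99.38% identical. The windows of 3 genes that passed are given 5′ to 3′ on the strand of the gene, up to 60 bases on each side of the run, ending before the gene start, with the shared run in capitals. That of Gm14391 is chr2:175206925-175207061 on the minus strand, that of Gm14288 chr2:175801080-175801239 on the minus strand and that of Gm14326 chr2:177957329-177957488 on the minus strand.
Gm14391: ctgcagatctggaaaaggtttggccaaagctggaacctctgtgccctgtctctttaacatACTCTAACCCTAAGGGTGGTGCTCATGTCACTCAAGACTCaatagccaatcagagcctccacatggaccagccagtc
Gm14288: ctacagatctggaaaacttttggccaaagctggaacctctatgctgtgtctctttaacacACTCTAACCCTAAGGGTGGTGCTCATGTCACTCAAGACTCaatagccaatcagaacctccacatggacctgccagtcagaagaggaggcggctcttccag
Gm14326: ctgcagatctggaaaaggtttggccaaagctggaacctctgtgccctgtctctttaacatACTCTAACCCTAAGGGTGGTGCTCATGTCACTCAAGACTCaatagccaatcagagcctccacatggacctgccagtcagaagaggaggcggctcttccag
The shared run is a description of these windows. The Gm14393 entry lacks it while Gm14393 passed, and no measurement here bears on binding at it.

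Rnase4 lay between 1.42 and 2.29 in WT (median 2.06) and between 2.66 and 3.58 in IFNAR1-/- glands (median 3.07), with no overlap. With the oncogene it lay between -0.35 and 1.94 in Her2/Neu+ (median 1.11) and between 1.23 and 2.76 in Her2/Neu+/IFNAR1-/- glands (median 2.60), where the ranges overlapped. The change was 1.33 ± 0.20, or 2.51-fold (adjusted p = 0.000591), with 1.22 ± 0.28 without and 1.44 ± 0.28 with the oncogene. Among the Her2/Neu+ values 2 of 6 were repeated values. The Her2/Neu+ arrays 114 and 119, both on the last slide, stood at -0.03 and -0.35, and the next lowest at 1.03. The change was 1.07 with repeated values missing and 1.07 without the last slide. It was 0.91 in the first 15 arrays alone (limma adjusted p = 0.655) and 1.96 in the last 15 alone. All of the 10 measured neighbours on chromosome 14 were short of the threshold, among them Rnase10 at -0.69 ± 0.49 and Ndrg2 at 0.58 ± 0.28 (adjusted p = 0.571).

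Tbc1d2 lay between 0.19 and 1.70 in WT (median 0.57) and between -2.89 and -0.48 in IFNAR1-/- glands (median -1.07), so the groups were apart. In Her2/Neu+ glands it lay between -0.12 and 1.70 (median 0.14) and in Her2/Neu+/IFNAR1-/- glands between -1.40 and 0.95 (median -0.24), and these overlapped. The change over both states was -1.41 ± 0.25, or 2.66-fold lower (adjusted p = 0.00869), from -2.09 ± 0.36 without and -0.73 ± 0.36 with the oncogene. Its probes gave -1.88 ± 0.28 and -0.94 ± 0.31, with 10 and 15 repeated values out of 30. Its neighbours Trim14 and Galnt12 on chromosome 4 had changes of 0.89 ± 0.85 and -0.29 ± 0.38.

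Slides were inferred from runs of block numbers in the labels, and 2 of the 8 slides held arrays of both receptor states. On one, the Her2/Neu+/IFNAR1-/- array differed from the mean of 3 WT arrays by -1.85 for Glo1, -1.65 for Tbc1d2, -0.13 for Rnase4 and 0.28 to 1.17 for the 5 zinc finger genes. On the other, the IFNAR1-/- array differed from the mean of the Her2/Neu+ pair by -1.17, -0.79, 3.29 and 0.88 to 1.94. Both contrasts also span the oncogene. With slide as a fixed block the change of each of the 8 genes is the mean of these 2 differences. It thus rests on 1 array without the receptor per slide. In that fit 81 of 10728 genes passed, of which 1 (Rnase4, at 1.58 ± 0.36, adjusted p = 0.0344) was among the 8. The Rnase4 value joins -0.13 on one slide and 3.29 on the other, so it does not show a change on both. Glo1 had a change of -1.51 ± 0.39 there (adjusted p = 0.0752), from -1.85 and -1.17.

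A fit by probe in place of by gene passed 18 of 19525 probes (0.0922%), 14 higher and 4 lower. Of these, 6 have no gene name in the annotation given, 5 of them higher. Beyond the 8 genes, the named probes that passed belonged to Zfp931 (1.55 ± 0.21, adjusted p = 0.000284), Gm14410 (1.29 ± 0.24, adjusted p = 0.0157) and Ifi203, an interferon-inducible gene of the Ifi200 cluster (-1.12 ± 0.23, adjusted p = 0.0374). The second probe of Zfp931 gave 0.64 ± 0.36 (adjusted p = 0.635) and that of Gm14410 1.26 ± 0.49 (adjusted p = 0.474), so neither passed. Of their values 18 of 29 and 14 of 30 were repeated values. The other probes of Ifi203 gave -0.96 ± 0.46 and -0.47 ± 0.30. Averaged over its probes, Ifi203 ranged from -0.18 to 2.13 in WT, -1.32 to -0.38 in IFNAR1-/-, -0.62 to 1.39 in Her2/Neu+ and -0.92 to 0.83 in Her2/Neu+/IFNAR1-/- glands, apart without the oncogene and overlapping with it. Its change by gene was -0.82 ± 0.23 (adjusted p = 0.308).

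At an adjusted p under 0.1 the count was 13 genes (0.113%), and the 5 added ones were all higher and did not pass. Inmt, which methylates indole amines, had a change of 1.60 ± 0.34 (adjusted p = 0.0709), from group medians of 1.28 in WT to 2.64 in IFNAR1-/- and of -0.21 in Her2/Neu+ to 1.66 in Her2/Neu+/IFNAR1-/-. Dynlt1c, a dynein light chain, had a change of 0.82 ± 0.18 (adjusted p = 0.0763) and nearly equal differences of 0.77 and 0.88 in the states. Its WT values of -1.24 to -0.73 and its IFNAR1-/- values of -1.05 to -0.00 overlapped through a single low IFNAR1-/- array. Agpat2, an enzyme of triglyceride synthesis, had a change of 1.70 ± 0.37 (adjusted p = 0.0763), but 0.56 without and 2.84 with the oncogene. Mia, a secreted protein first described in melanoma, had a change of 2.91 ± 0.64 (adjusted p = 0.0963), and it reached the upper limit on 2 IFNAR1-/- and 3 Her2/Neu+/IFNAR1-/- arrays. Among the Her2/Neu+ values, 4 of 6 were repeated values for Mia (group median -0.01), 3 of 6 for Inmt and 2 of 6 for Agpat2. Flywch2 had a change of 1.20 ± 0.24 (adjusted p = 0.0836), and its 2.73 without and -0.33 with the oncogene differed by the interaction test (adjusted p = 0.0282). All 5 of its WT values and all 5 of its Her2/Neu+/IFNAR1-/- values were repeated values.

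Across all genes the changes in the separate states share no arrays and were set side by side. The same sign was found in 48.1% of the genes, and the changes correlated across genes at a Pearson r of -0.02 and a Spearman rho of -0.03. Genes are not independent replicates, so these are descriptions. At an unadjusted p under 0.05 there were 787 genes without the oncogene (6.87%) and 1280 with it (11.2%). Of 68 genes found in both, 42 (0.366% of all genes) went in the same direction, 25 higher and 17 lower, and the rest in opposite directions. The 42 genes are 5.34% of the first and 3.28% of the second set. Both contrasts draw on a shared estimate of the spread, and the overlap that unrelated changes would give was not computed. Whether the count reflects a shared response was thus not tested.

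**Figure D3:**
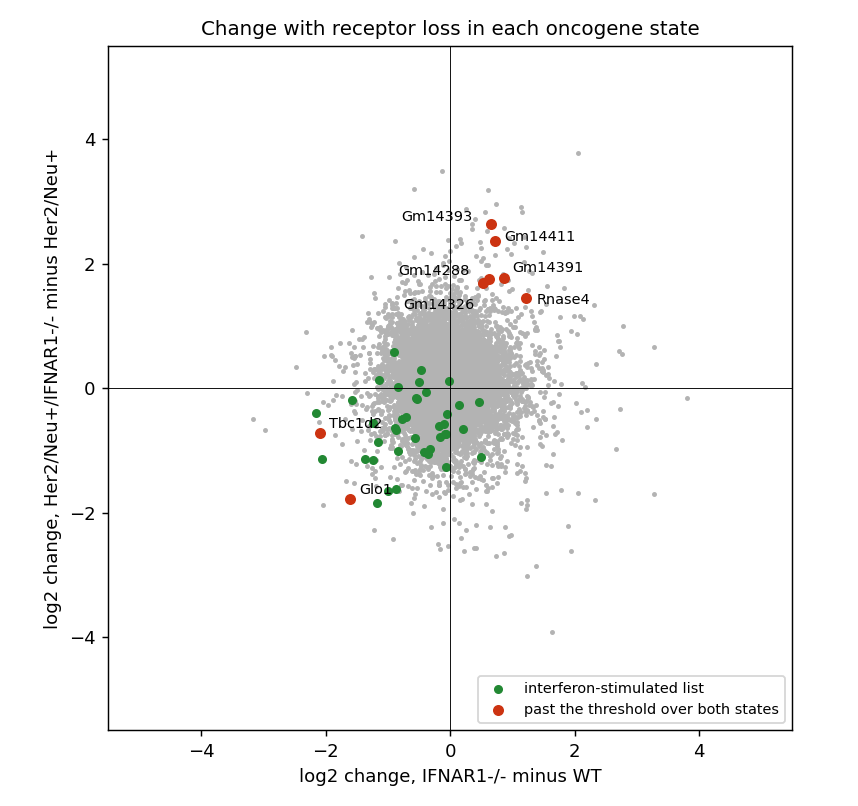
Log2 change with receptor loss without (horizontal axis) and with (vertical axis) the oncogene, 1 point per gene for 11463 genes. The 8 genes past the threshold over both states (red) lie in the corners where the changes share a sign, and 29 of 39 interferon-stimulated genes (green) lie in the lower left.

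Among these 42 genes, those described next did not pass over both states and were named after their values were seen. Cish, a feedback inhibitor of cytokine signalling through STAT5, had a change of 1.17 ± 0.27 (adjusted p = 0.121), 1.05 without and 1.29 with the oncogene. Il6st, the gp130 chain shared by receptors of the interleukin-6 family, had a change of 0.78 ± 0.20 (adjusted p = 0.222). Scarb1, a receptor for high-density lipoprotein, Lrp1, an endocytic receptor, and Cst3, an inhibitor of cysteine proteases, were higher by 0.55, 1.06 and 0.52 (adjusted p = 0.369, 0.389 and 0.244). On the lower side stood Gvin1, a very large interferon-inducible GTPase, at -1.38 ± 0.33 (adjusted p = 0.156), and the spliceosome helicase Ddx46 at -0.63 ± 0.20 (adjusted p = 0.379).

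Genes that type I interferon induces stood lower without the receptor as a group, though no member passed. Of 46 listed genes 39 were measured, and 37 of these were lower and 2 higher over both states, with 29 lower in each state and 0 higher in each. Of all 11463 genes 47.4% were lower over both states, while 2703 genes were lower in each state and 2812 higher in each. At an unadjusted p under 0.05, 12 of 39 were lower and 0 higher, beside 4.00% and 4.61% of all genes. The median change was -0.58, with -0.55 without and -0.64 with the oncogene, where all genes had 0.02, -0.08 and 0.11. The count of 12 was 19 without the Her2/Neu+ array 114, 20 with array weights, 2 of 37 with slide as a fixed block, and 4 and 6 in the first and last 15 arrays alone. In 50 other settings and single-array omissions the list median lay between -0.67 and -0.41, each time below that of all genes. The list was chosen with earlier results of these data known, so its direction is not independent evidence. In whole glands, fewer cells of a type and less RNA per cell cannot be told apart.

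The mean of the 39 members per array, after each gene was centred on the mean of the 4 groups, lay between -0.64 and 0.27 in WT (median -0.19) and between -1.29 and -0.65 in IFNAR1-/- glands (median -0.79). It lay between -0.24 and 2.00 in Her2/Neu+ (median 0.91) and between -0.49 and 1.67 in Her2/Neu+/IFNAR1-/- glands (median -0.02). The IFNAR1-/- arrays were all below the WT arrays, by a narrow gap, and the groups with the oncogene spread widely and overlapped.

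Oasl1, an oligoadenylate synthetase-like protein, had the smallest p of the list. It lay between -4.60 and -2.49 in WT (median -3.06), between -5.23 and -3.36 in IFNAR1-/- (median -4.58), between -3.27 and -0.04 in Her2/Neu+ (median -0.66) and between -4.18 and -0.76 in Her2/Neu+/IFNAR1-/- glands (median -3.06). The medians were lower without the receptor in both states and the ranges overlapped. Its change was -1.33 ± 0.35 (adjusted p = 0.244).

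Members of the oligoadenylate synthetase family, which make the second messenger that activates RNase L, had changes of -1.51 ± 0.48 for Oas1f, -1.20 ± 0.43 for Oas1a and -1.26 ± 0.48 for Oas2, but -0.23 ± 0.17 for Oas3 and -0.20 ± 0.25 for Oas1b. Rtp4, a chaperone of receptor transport, had a change of -1.60 ± 0.46 (adjusted p = 0.308) from medians of -2.39 to -3.72 without and 0.79 to -1.19 with the oncogene. The tetherin gene Bst2, whose protein holds virus particles at the cell surface, had a change of -1.25 ± 0.37 (adjusted p = 0.364). Isg15, the ubiquitin-like modifier, had one of -0.93 ± 0.44 and Usp18, which removes it, one of -0.89 ± 0.46 (adjusted p = 0.599). Those of Ifit1, Ifit2 and Ifit3, which bind viral RNA or its partners, were -0.65 ± 0.45, -0.67 ± 0.61 and -0.68 ± 0.36. For Ifit1, 6 of 6 WT, 8 of 8 IFNAR1-/-, 3 of 6 Her2/Neu+ and 8 of 9 Her2/Neu+/IFNAR1-/- values were repeated values, so its change is poorly measured. For Ifit3 these were 3 of 7, 4 of 8, 0 of 6 and 2 of 9. Irf7, the factor that amplifies interferon production, had a change of -0.07 ± 0.55 (adjusted p = 0.984), with 7 of 7 WT values repeated. Ifitm3 and Parp9, at 0.12 ± 0.28 and 0.05 ± 0.33, were the members above 0.

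**Figure D4:**
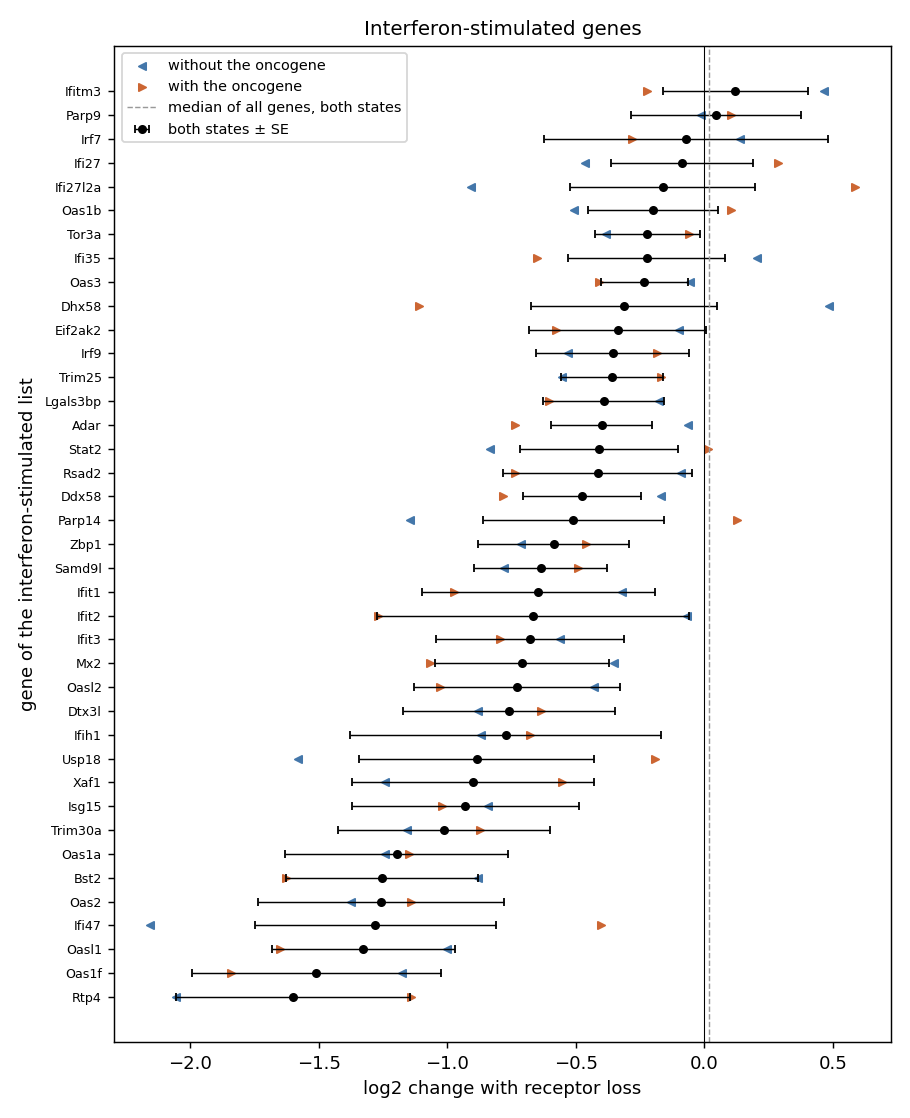
Log2 change with receptor loss for the 39 measured interferon-stimulated genes, ordered by the change over both states (black, ± standard error), with the change without (blue) and with (orange) the oncogene. In 37 of 39 genes the black point lies below 0, down to -1.60 in Rtp4; none passed over all genes.

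Genes that respond strongly to interferon-gamma also stood lower, with 0 past the threshold. Of 19 listed genes 13 were measured, and 11 of these were lower, beside 47.4% of all genes. At an unadjusted p under 0.05, 5 of 13 were lower, beside 4.00% of all genes. The list median was -0.82, from -0.998 without and -0.67 with the oncogene. It lay between -0.98 and -0.12 in the 50 other settings, with the value nearest 0 under slide as a fixed block. Gbp3, a guanylate-binding protein that attacks vacuoles of pathogens, ranged from -0.07 to 3.39 in WT (median 0.99), -0.94 to 1.30 in IFNAR1-/- (median -0.32), 3.25 to 4.11 in Her2/Neu+ (median 3.52) and -0.03 to 3.97 in Her2/Neu+/IFNAR1-/- glands (median 2.29). Its medians were lower without the receptor in both states, within overlapping ranges, and its change was -1.54 ± 0.42 (adjusted p = 0.263). Igtp, Tgtp2 and Gbp4, GTPases of the same defence, had changes of -1.09 ± 0.35, -1.30 ± 0.45 and -1.82 ± 0.67. The chemokine gene Cxcl10 had a change of -0.82 ± 0.39. Irf1, a transcription factor that interferon-gamma induces, stood at 0.08 ± 0.18 and Gbp2 at 0.18 ± 0.35.

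Response elements were searched in the promoters of these genes to show what the lists share in sequence. The element GAAANNGAAA, on either strand within 250 bases before the start in RefSeq entries of GRCm38.p6, was found in 9 of 27 interferon-stimulated genes with an entry (33.3%), in 8 of 9 interferon-gamma leaning genes (88.9%) and in 279 of 8802 measured genes (3.17%). Windows of members described above are printed 5′ to 3′ on the strand of the gene, with every match in capitals and the bases around it in lower case. The Oas1a window is chr5:120907526-120907570 (minus strand), that of Bst2 chr8:71537568-71537627 (minus strand), that of Gbp3 chr3:142559974-142560033 (plus strand) and that of Tgtp2 chr11:49064248-49064307 (minus strand).
Oas1a: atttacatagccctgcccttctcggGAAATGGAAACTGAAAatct
Bst2: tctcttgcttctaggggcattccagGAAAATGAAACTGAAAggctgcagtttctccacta
Gbp3: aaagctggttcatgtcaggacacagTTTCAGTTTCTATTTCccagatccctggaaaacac
Tgtp2: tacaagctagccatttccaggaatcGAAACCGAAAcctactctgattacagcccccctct
The match in Gbp3 is on the opposite strand and so reads as its reverse complement. Oas1a, Bst2 and Gbp3 each hold 2 matches, which overlap, so their capitals run over both. Interferon-stimulated genes with the element had a median change of -0.68 and those without it -0.56. The 262 measured genes that hold it and are in neither list had a median of -0.02, near the 0.01 of measured genes without the element. A match is no measured site.

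Other lists of the interferon system had no member past the threshold and medians near that of all genes. Of 18 measured genes of MHC class I and peptide loading 9 were higher and 9 lower, 0 passed and the median was -0.01; the smallest p was that of the chaperone Calr at 0.55 ± 0.28 (adjusted p = 0.586). Among 6 MHC class II genes the median was 0.06, and Cd74, the invariant chain, stood at 0.54 ± 0.25 (adjusted p = 0.546). In the receptor and Janus kinase list 10 of 12 genes were higher with a median of 0.14, and Ifngr2, a chain of the interferon-gamma receptor and a neighbour of Ifnar1 on chromosome 16, had a change of 0.56 ± 0.19 (adjusted p = 0.418). The 14 measured neighbours of Ifnar1 had a median of 0.02, 7 higher and 7 lower. Without the oncogene 11 of 14 were lower (median -0.19) and with it 12 of 14 were higher (median 0.24), where all genes had medians of -0.08 and 0.11. For 11 nucleic acid sensors the median was 0.02, with Tlr9, an endosomal DNA receptor, at 0.67 ± 0.25 (adjusted p = 0.463).

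**Figure D5:**
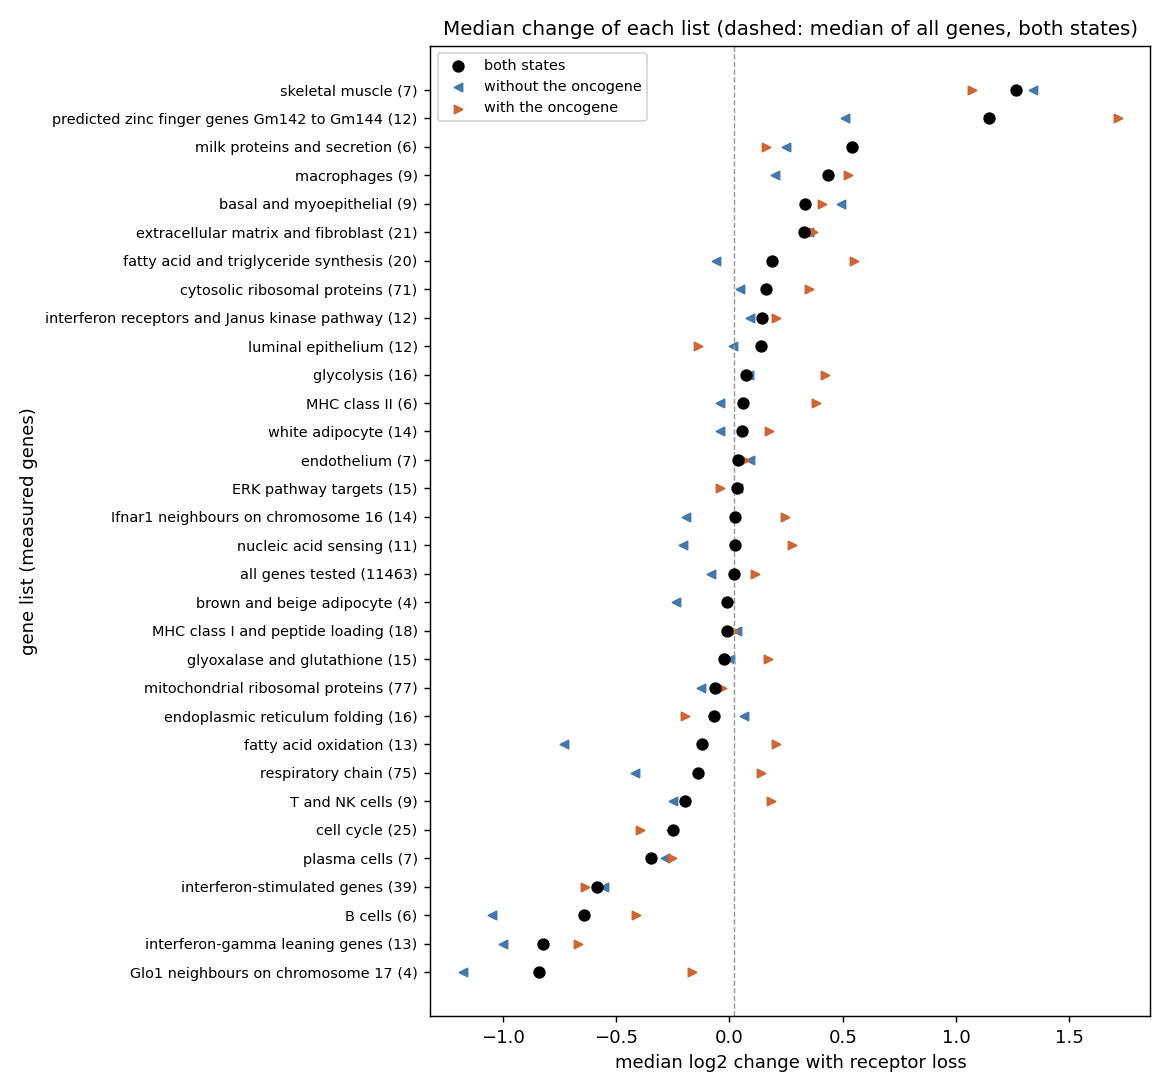
Median log2 change with receptor loss of each gene list with 4 or more measured genes, over both states (black) and in the states without (blue) and with (orange) the oncogene; the dashed line is the median of all genes, 0.02. The interferon lists lie at -0.58 and -0.82, and the lists of skeletal muscle and predicted zinc finger genes at 1.26 and 1.15.

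Extracellular matrix and fibroblast genes stood higher without the receptor, again with 0 of them past the threshold. Of 21 measured genes 18 were higher and 8 were so at an unadjusted p under 0.05, beside 52.6% and 4.61% of all genes. The list median was 0.33, with 0.35 without and 0.37 with the oncogene. Fn1, which encodes fibronectin, had medians of -1.47 in WT, -1.15 in IFNAR1-/-, -3.54 in Her2/Neu+ and -2.42 in Her2/Neu+/IFNAR1-/- glands and a change of 0.90 ± 0.27 (adjusted p = 0.364). Its ranges overlapped in both states, and with slide as a fixed block the value was -0.29. The collagens Col3a1 and Col1a1, named after their values were seen, had changes of 1.08 ± 0.35 and 0.62 ± 0.26. The list median was 0.04 to 0.62 over the 50 other settings, above that of all genes in each.

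Markers of other cell types in the gland had no member past the threshold. Of all genes tested 52.6% were higher and 47.4% lower over both states. Basal and myoepithelial genes were higher in 8 of 9 (median 0.34), with Tagln, an actin-binding protein, at 0.77 ± 0.25 (adjusted p = 0.389). Luminal genes were higher in 7 of 12 (median 0.14), with the keratin Krt19 at 1.06 ± 0.43 (adjusted p = 0.487). The luminal median was 0.02 without and -0.14 with the oncogene, with 6 and 5 of 12 genes higher. The 6 measured genes of milk proteins and secretion had a median of 0.54, with 0.25 without and 0.16 with the oncogene. Of these genes 3 were higher in both states. They included Btn1a1, which coats milk fat, at 0.40 ± 0.16 (adjusted p = 0.488). Btn1a1 stood at -0.14 without and 0.94 with the oncogene (interaction adjusted p = 0.432). Macrophage genes were higher in 6 of 9 (median 0.44), with the complement gene C1qc at 0.46 ± 0.17 (adjusted p = 0.463). C1qc stood at -0.02 without and 0.94 with the oncogene (interaction adjusted p = 0.483). B cell genes were lower in 6 of 6 (median -0.64), though the centred list mean had close group medians of -0.04 in WT, -0.19 in IFNAR1-/-, 0.07 in Her2/Neu+ and -0.16 in Her2/Neu+/IFNAR1-/- glands. The IFNAR1-/- arrays 46, 50 and 47 were low at -2.71, -2.55 and -2.23 and the Her2/Neu+ array 114 was high at 3.20. In this list the smallest p was that of the complement receptor Cr2, at -1.33 ± 0.72 (adjusted p = 0.629) and at the limit on all 6 WT arrays with a value, so that its difference is not exact. Plasma cell genes had a median of -0.35, with Xbp1, a factor of secretory cells, at -0.42 ± 0.18 (adjusted p = 0.510). For Xbp1 the difference was 0.04 without and -0.88 with the oncogene (interaction adjusted p = 0.483). T and NK cell genes had a median of -0.20, with Cd3g, a chain of the T cell receptor complex, at -0.69 ± 0.39 (adjusted p = 0.634). The list median was -0.25 without and 0.18 with the oncogene, and Cd3g stood at -1.90 and 0.51 (interaction adjusted p = 0.456). For Cd3g 1 of 7 WT, 5 of 8 IFNAR1-/-, 4 of 6 Her2/Neu+ and 6 of 9 Her2/Neu+/IFNAR1-/- values were repeated values, so these differences are poorly measured. Endothelial genes stood at 0.04, with the adhesion molecule Esam at -0.90 ± 0.50 (adjusted p = 0.637), and white adipocyte genes at 0.06, with Cebpa, a factor of fat cell differentiation, at 0.50 ± 0.29 (adjusted p = 0.643). These values are bounded by the scale: Cebpa stood at 6 on 2 of 7 WT, 5 of 8 IFNAR1-/-, 1 of 6 Her2/Neu+ and 6 of 9 Her2/Neu+/IFNAR1-/- arrays, and Esam on 5 of 7, 4 of 8, 2 of 6 and 1 of 5 with a value, so neither difference is exact. The median level of the adipocyte list was 5.04 to 5.31 in the 4 groups, near the limit. Krt10, the 1 measured gene of the keratinocyte list, stood at -0.01 ± 0.33. Of its values, 5 of 5 in WT, 4 of 6 in IFNAR1-/-, 2 of 3 in Her2/Neu+ and 8 of 8 in Her2/Neu+/IFNAR1-/- glands were repeated values.

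Skeletal muscle genes were higher in 7 of 7 measured of 14 listed, with a median of 1.26, through a few arrays. The mean of the list per array, centred as above, reached 3.75, 4.10 and 4.36 on the IFNAR1-/- arrays 41, 42 and 44 and 3.45 on the Her2/Neu+/IFNAR1-/- array 106. Group medians were -0.63 in WT, -0.48 in IFNAR1-/-, -0.54 in Her2/Neu+ and -0.43 in Her2/Neu+/IFNAR1-/- glands. For Acta1, the actin of skeletal muscle, the value was 1.97 ± 0.65 (adjusted p = 0.394). Its repeated values were 5 of 7 in WT, 0 of 8 in IFNAR1-/-, 3 of 6 in Her2/Neu+ and 7 of 9 in Her2/Neu+/IFNAR1-/- glands. Without the 3 IFNAR1-/- arrays the list median was 0.17 over 6 genes, and the same 8 genes passed.

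Lists of metabolism and growth were also without a member past the threshold apart from Glo1. Respiratory chain genes were lower in 51 of 75 and at an unadjusted p under 0.05 in 11, beside 47.4% and 4.00% of all genes. The list median of -0.14 joined -0.42 without and 0.14 with the oncogene. It was -0.05 without the Her2/Neu+ array 115 and -0.22 without Her2/Neu+ 114, and it lay between -0.27 and 0.11 over the 50 other settings. Cox7a1, a subunit of cytochrome oxidase found in muscle and brown fat, had a change of -0.96 ± 0.30 (adjusted p = 0.379). Fatty acid oxidation genes had a median of -0.12, from -0.73 without and 0.20 with the oncogene, with Etfdh, which passes electrons from this pathway on, at -0.77 ± 0.26 (adjusted p = 0.418). Fatty acid and triglyceride synthesis genes had a median of 0.19 over 20 genes, and Agpat2 among them is described above. Genes of brown and beige fat stood at -0.01.

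Cytosolic ribosomal protein genes were higher in 58 of 71 and at an unadjusted p under 0.05 in 7, beside 52.6% and 4.61% of all genes. The list median was 0.16. Without the Her2/Neu+ array 119 the median was 0.10, and in the first 15 arrays alone it was 0.06, below the 0.09 of all genes there. Rps27 had a change of 0.63 ± 0.22 (adjusted p = 0.443). Mitochondrial ribosomal protein genes were lower in 51 of 77 with a median of -0.06, and Mrpl34 had a change of -0.40 ± 0.13 (adjusted p = 0.374). Cell cycle genes had a median of -0.25 and were lower in 21 of 25, beside 47.4% of all genes. The median was -0.12 without the Her2/Neu+ array 114, -0.40 without Her2/Neu+ 115, 0.09 in the first 15 arrays alone and -0.90 in the last 15 alone. Among these genes Mcm3, a subunit of the replicative helicase, had a change of -0.61 ± 0.27 (adjusted p = 0.538). Glycolysis genes had a median of 0.07, with Tpi1, triose phosphate isomerase, at 0.62 ± 0.25 (adjusted p = 0.487). Genes of folding in the endoplasmic reticulum had a median of -0.07, with Edem1, which marks misfolded proteins for removal, at -0.40 ± 0.21 (adjusted p = 0.608). ERK pathway targets had a median of 0.04, with the feedback inhibitor Spry1 at -0.67 ± 0.36 (adjusted p = 0.614).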

How the data were processed

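RNA of 30 mouse mammary glands was measured on 2-colour Agilent arrays, 1 array per sample. The values are log2 ratios as deposited by the authors; the base was inferred from the limit of the scale at 6, and the direction, gland over reference, from the dyes in the labels. Scanner settings, background correction, normalization and the rule for blanks are not given in the sources used here. Precision is limited by the number of arrays, as intensities were not used here.

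Probes were kept where every group had values for 50% or more of its arrays, and were averaged per gene symbol, and 2606 genes had more than 1 probe. A linear model with a mean per group was fitted in limma 3.58.1 (R 4.3.3) with lmFit and eBayes, without further normalization, and the contrast over both states was tested two-sided with Benjamini-Hochberg adjustment over 11463 genes. The procedure was checked on simulated data. Blanks (2.87% of the gene table) were left missing. Array sets are the first and last 15 samples, and slides were inferred from block numbers; neither is stated as a batch in the labels. For lists, counts and medians are given without a test. Named genes were, among those past the threshold with repeated values on under 50% of the arrays of every group, up to 12 in each direction; per list, up to 3 members past the threshold or else the member with the smallest p; and Ifnar1, Ifnar2 and Glo1. The members and lists were chosen with earlier results of these data known.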

Additional observations from a re-analysis of the deposited data

Results flagged for a closer look

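In 245 groups of 4 or more values over 62 named genes, 28 values lay apart from the rest of their group by Dixon's criterion, which chance alone meets in about 1 group in 20. Among the genes past the threshold these were Glo1 on Her2/Neu+/IFNAR1-/- 109, at -2.90 with the next value at -1.51, and Gm14411 on WT 59, at -1.37 with the next at -0.36.

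The Her2/Neu+ array 114 stood apart in Ifnar1 (3.66, next 0.75), Edem1 (2.42, next 0.31), C1qc (3.14, next 4.21) and Col1a1 (-3.68, next -1.24), Her2/Neu+ 118 in Inmt (-2.47) and Her2/Neu+ 113 in Esam (2.52). The IFNAR1-/- array 41 stood apart in Fn1 (-3.25), Dynlt1c (-1.05), 1700097N02Rik (-1.89) and Ifnar2 (-1.03), array 42 in Gm14308 (2.49) and Esam (0.63), array 45 in Gbp3 (1.30) and Btbd9 (1.63) and array 44 in Ifit1 (-1.84). Among Her2/Neu+/IFNAR1-/- arrays, 106 was high in Acta1 (3.98), 105 in Calr (1.34) and Rsad2 (2.37), and 110 was high in Ifit1 (4.69) and low in Cr2 (1.43) and Cebpa (2.61). WT 60 was apart in Krt10 (-0.60), Ifit1 (-0.90), Rsad2 (-1.77) and Flywch2 (0.13), and WT 56 in Mia (-0.01).

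The difference between the states was past the threshold in Flywch2, where the change with the oncogene minus that without it was -3.06 (adjusted p = 0.0282), with all WT and Her2/Neu+/IFNAR1-/- values repeated.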

How the results depend on the processing

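In all, 8 genes passed, and the count was 8 to 15 when 1 array was left out, with 15 without Her2/Neu+ 120 or Her2/Neu+/IFNAR1-/- 110; all 8 genes were among them each time. It was 81 with slide as a fixed block, 0 in array set 1 alone (limma; 807 genes at an unadjusted p under 0.05), 293 in array set 2 alone and 15 without the last slide, and 6 to 11 under the other alternatives; the cause was not tested. Directions of the 8 genes were kept in all alternatives that gave a value. Directions turned in genes that did not pass: Krt10 was 0.10 after quantile normalization, 0.0083 with additive terms, 0.50 with slide as a fixed block, 0.0271 with it as a random block, 0.02 in array set 2 and 0.17 without IFNAR1-/- 41, 42 and 44. Ifnar1 was -0.0331 with either choice of 1 probe, -0.0326 in array set 1, -0.14 with array set as a block, -0.39 in array set 2 and -0.0163 without those 3 arrays. With the probe of most values Mrpl34 was 0.0311 and C1qc -0.24. With slide as a fixed block Fn1 was -0.29, Krt19 -0.31, Spry1 0.53, Cd3g 0.38 and Ifnar2 -0.24, and Spry1 was 0.0544 in array set 2. Over the fits that left out 1 array Ifnar1 ran from -0.13 to 0.31, Krt10 from -0.21 to 0.20 and Ifnar2 from -0.0344 to 0.24. No paired analysis was possible because the sample numbers in the labels are not shared between groups.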
